A study of Homo sapiens with 3 samples.

Results

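The NKG2D ligand genes are 8 genes of chromosome 6 whose proteins are displayed on the cell surface and bound by NKG2D, an activating receptor of natural killer cells and of some T cells. They were taken by gene name from the count tables, as ULBP1, ULBP2, ULBP3, RAET1E, RAET1G, RAET1L, MICA and MICB, and make up 8 of the 58735 genes listed there. The set was chosen from earlier results of the same libraries, in which ULBP1 stood out, so the ratios to the control below are a description and carry no test. Of the 8 genes, 7 averaged 1 CPM or more over the 3 libraries, where CPM is the standard unit of counts scaled to library size, as did 13984 genes in all, and RAET1L had no count in any library.

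RNA was sequenced from A549 cells, a human lung adenocarcinoma line grown in medium with 10% fetal bovine serum, to ask what loss of DDX24 does to the transcriptome. DDX24 is a DEAD-box RNA helicase. The 3 libraries, 1 per condition, are a control (Control-sh) and 2 stable knockdowns made with different shRNAs (DDX24-sh1 and DDX24-sh2), each from 4 µg of total RNA. The knockdown lines were made with pLKO.1 lentivirus and selected with puromycin. The study describes the control both as an empty vector and as a control shRNA, and the labels do not settle which of these was sequenced. With 1 library per condition there is no replicate check of any difference and no p-value. The 95% intervals given here are exact binomial (Clopper-Pearson) intervals on the 2 read counts, which cover counting error only and not the variation between cultures. Both ratios share the control library, so the knockdowns are not 2 independent comparisons.

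Library totals were 17218884 counts for the control, 18337471 for DDX24-sh1 and 17847190 for DDX24-sh2. DDX24 itself had 2010, 637 and 765 counts, which is a log2 ratio of -1.75 (interval -1.89 to -1.63) in DDX24-sh1 and -1.47 (-1.60 to -1.35) in DDX24-sh2. Counts of mitochondrial genes made up 4.36%, 5.13% and 7.04% of the libraries, and the part of this difference in the results below was not tested. The epithelial keratin genes KRT7, KRT8 and KRT18 had at least 22548 counts in every library, while EPCAM, an epithelial adhesion molecule, had only 29 to 32. KRT19, a further epithelial keratin, had 1001, 2251 and 2728 counts, at log2 ratios of 1.07 and 1.36, and CDH1, which encodes E-cadherin, had 538, 358 and 261, at -0.68 and -1.12. Of 11 lymphocyte genes, 8 had no count in any library, PTPRC, CD3D, GNLY and PRF1 among them. CD8A had 29, 17 and 23 counts, NKG7 and CD247 at most 2, and the summed level of the list was 1.04 to 1.93 CPM. In the deposited FPKM values the names of the shRNA libraries are exchanged relative to the counts: 100% of the 12171 genes with at least 50 counts in DDX24-sh1 matched the FPKM named DDX24-sh2 within 1% of a constant, against 5.23% for the FPKM of the same name. Which naming is right is not known, and DDX24-sh1 and DDX24-sh2 mean the names of the count tables throughout.

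NKG2D binds structurally diverged relatives of MHC class I that present no peptide. Healthy epithelial cells carry little of these ligands at the surface, and stress, infection and transformation raise them, which marks the cell for killing by natural killer cells. MICA and MICB are transmembrane proteins encoded inside the MHC on the short arm of chromosome 6. The ULBP and RAET1 genes lie in a cluster on the long arm, where ULBP1, ULBP2, ULBP3 and RAET1L encode proteins held by a glycosylphosphatidylinositol (GPI) anchor. RAET1E, RAET1G and RAET1L are also called ULBP4, ULBP5 and ULBP6.

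The sequences before the start sites were compared within the family and searched for motifs of stress-responsive factors. All 8 genes matched RefSeq promoters of build GRCh38.p14, which hold 250 bases before each RefSeq start, given on the strand of the gene. ULBP1 is shown from chr6:149963693-149963942, ULBP2 from chr6:149941764-149941999, MICA from chr6:31403345-31403578 and MICB from chr6:31497895-31498085, all on the plus strand. Each window was cut at the first base of an annotated exon of the same gene, which took 14 bases from ULBP2, 16 from MICA and 59 from MICB. In ULBP1 and ULBP2 the capitals mark TGACG or its reverse complement CGTCA, the half-site of the cyclic AMP response element that factors of the ATF and CREB family bind. In MICA and MICB they mark GAANNTTC, the core of the heat shock element.
ULBP1: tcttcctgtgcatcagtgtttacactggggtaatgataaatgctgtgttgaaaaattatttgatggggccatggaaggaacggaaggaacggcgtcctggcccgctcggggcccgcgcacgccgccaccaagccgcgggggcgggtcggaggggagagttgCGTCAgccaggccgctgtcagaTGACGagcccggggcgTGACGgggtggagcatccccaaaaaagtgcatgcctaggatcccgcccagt
ULBP2: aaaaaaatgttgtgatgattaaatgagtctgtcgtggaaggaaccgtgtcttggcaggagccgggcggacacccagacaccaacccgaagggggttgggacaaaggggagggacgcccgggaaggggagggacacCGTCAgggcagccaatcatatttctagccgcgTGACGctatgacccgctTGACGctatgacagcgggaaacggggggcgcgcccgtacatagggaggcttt
MICA: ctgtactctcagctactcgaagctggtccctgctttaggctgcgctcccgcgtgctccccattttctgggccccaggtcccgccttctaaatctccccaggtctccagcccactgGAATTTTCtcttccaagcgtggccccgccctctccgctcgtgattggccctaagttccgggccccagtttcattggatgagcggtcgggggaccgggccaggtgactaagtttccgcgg
MICB: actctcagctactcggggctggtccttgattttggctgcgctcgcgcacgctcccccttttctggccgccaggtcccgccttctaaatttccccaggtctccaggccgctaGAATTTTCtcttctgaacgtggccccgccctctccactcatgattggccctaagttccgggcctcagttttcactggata
Motifs were searched on both strands. TGACG occurred 3 times in ULBP1, at 89, 67 and 51 bases before the start, and 3 times in ULBP2, at 115, 83 and 66 bases. The windows of the other 6 genes hold none. Of 35116 RefSeq promoters of the same length, 21.2% hold at least 1 and 1.01% hold at least 3. The longer composite site of ATF4 and C/EBP factors, TGATGNAA, was in no window of the 8 genes and in 3.14% of all promoters. GAANNTTC was found in MICA, 135 bases before the start, and in MICB, at 139 bases, and in 5.78% of all promoters. The GC box GGGCGG occurred 6 times in ULBP3, against at least 1 copy in 42.6% of all promoters and at least 6 in 2.22%, and the CCAAT box was in ULBP2, RAET1E, RAET1G, MICA and MICB and in 32.0% of promoters. MICA and MICB were identical at 82.7% of aligned upstream bases, whereas ULBP1 and ULBP2, which share the 3 half-sites, were identical at 44.0%. These alignments ran end to end over fixed windows, with no baseline from unrelated promoters. A low value thus does not show that 2 upstream sequences are unrelated. A motif match describes letters in these windows and shows no binding.

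ULBP1 was the only ligand gene lower in both knockdown libraries. ULBP1 (ENSG00000111981, chr6:149964007-149973710, plus strand, coordinates of GRCh38 with GENCODE 29 as for all genes below) had 321 counts in the control library, against 37 with DDX24-sh1 and 34 with DDX24-sh2. Scaled for library size and composition, these are 18.8, 2.02 and 1.88 CPM. The log2 ratio to the control was -3.15 (-3.75 to -2.72) for DDX24-sh1 and -3.24 (-3.87 to -2.81) for DDX24-sh2. These ratios include a prior count of 2, which draws them toward the control. The CPM values without it were 10.8% and 10.0% of the control level. The control library was high and the knockdown libraries were low and close together, with a log2 ratio of -0.10 (-0.82 to 0.61) between them. In these bulk libraries fewer cells with ULBP1 RNA and less of it per cell cannot be told apart. By the smaller of its changes, ULBP1 had rank 5 from the lowest among the 13984 genes. Both ratios pass 2-fold, as do those of 193 genes (1.38%) on the lower side, and nothing is read from that share, since ULBP1 was chosen for this difference.

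**Figure D1:**
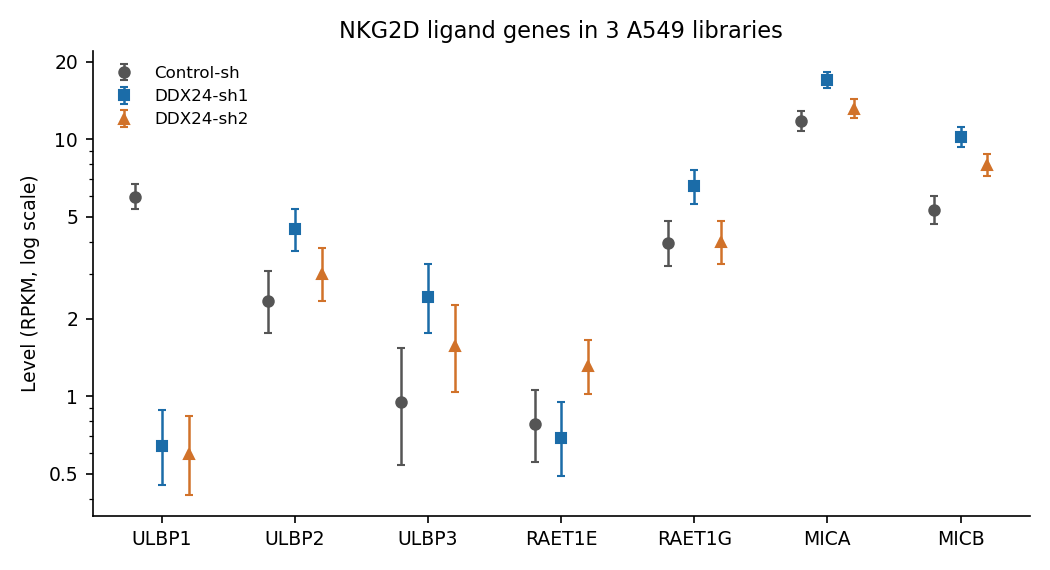
Level of the 7 NKG2D ligand genes with counts in each library, as CPM per kilobase of gene length (RPKM) on a log axis; bars are 95% intervals of the count, counting error only, and each point is 1 library. ULBP1 is at 5.99 RPKM in the control and at 0.644 and 0.599 RPKM in the knockdowns, while MICA is highest in every library.

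The other GPI-anchored ligands did not share the direction of ULBP1. ULBP2 (ENSG00000131015, chr6:149942000-149949235, plus strand), the ligand gene next to ULBP1, had 54 counts in the control library and 110 and 73 in the knockdowns, with DDX24-sh1 given first here and for all genes below. Its log2 ratios were 0.90 (0.44 to 1.42) and 0.34 (-0.17 to 0.89). Both knockdown libraries lay above the control, DDX24-sh2 within counting error of it and 0.56 below DDX24-sh1 (interval of the log2 ratio between them -1.02 to -0.13). ULBP3 (ENSG00000131019, chr6:150063150-150069095, minus strand) had 16, 44 and 28 counts and reached the average of 1 CPM through the knockdown libraries, since the control lay at 0.937 CPM. The log2 ratios of ULBP3 were 1.26 (0.51 to 2.28) and 0.66 (-0.21 to 1.71), the largest on the higher side among the ligand genes in DDX24-sh1. RAET1L (ENSG00000155918, chr6:150018334-150025532, minus strand) had 0 counts in all 3 libraries, which by a 1-sided limit allows up to 3 counts, or 0.176, 0.164 and 0.166 CPM, and no ratio.

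The ligands described as transmembrane members of the RAET1 group differed between the knockdown libraries. RAET1G (ENSG00000203722, chr6:149916878-149923121, minus strand) had 100, 178 and 107 counts. Only DDX24-sh1 was high: the log2 ratio was 0.72 (0.37 to 1.10) there and 0.02 (-0.39 to 0.42) in DDX24-sh2. RAET1E (ENSG00000164520, chr6:149883375-149898102, minus strand) had 40, 38 and 71 counts, and here DDX24-sh2 was the high library. RAET1E had log2 ratios of -0.17 (-0.85 to 0.50) and 0.72 (0.17 to 1.34), on opposite sides of the control. Since the counts and the FPKM values name the knockdowns differently, which hairpin gave the high RAET1E value is uncertain.

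Of the ligands encoded in the MHC, MICB was higher in both knockdown libraries and MICA in DDX24-sh1. MICB (ENSG00000204516, chr6:31494881-31511124, plus strand) had 253, 522 and 400 counts, with log2 ratios of 0.94 (0.73 to 1.17) in DDX24-sh1 and 0.58 (0.35 to 0.81) in DDX24-sh2. It was the only ligand gene above the control beyond counting error in both libraries. MICA (ENSG00000204520, chr6:31399784-31415315, plus strand) had 481, 742 and 566 counts and log2 ratios of 0.52 (0.36 to 0.69) and 0.15 (-0.02 to 0.33). In both genes DDX24-sh1 was the highest library, and DDX24-sh2 lay below it at log2 ratios of -0.37 (-0.53 to -0.21) for MICA and -0.36 (-0.56 to -0.17) for MICB.

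**Figure D2:**
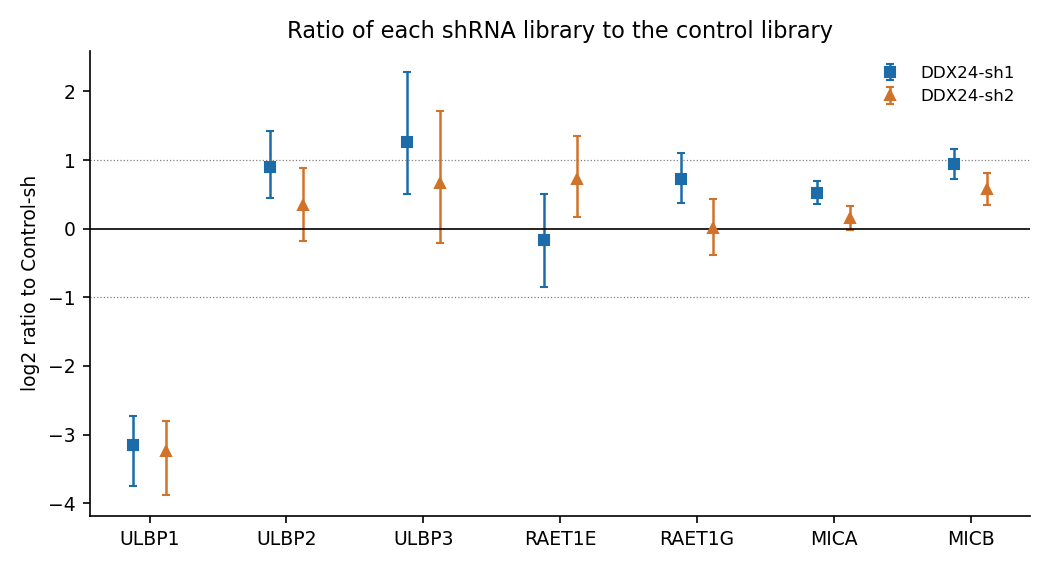
Log2 ratio of each knockdown library to Control-sh for the 7 ligand genes, with 95% intervals of counting error; dotted lines mark 2-fold. ULBP1 lies at -3.15 and -3.24, and of the other genes only ULBP3, in DDX24-sh1, passes 2-fold.

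Counted over the 7 genes averaging 1 CPM or more, ULBP1 was the 1 gene at least 2-fold lower in DDX24-sh1 and also the 1 gene in DDX24-sh2. Among all 13984 genes 318 (2.27%) were 2-fold lower in DDX24-sh1 and 430 (3.07%) in DDX24-sh2. On the higher side ULBP3 passed 2-fold in DDX24-sh1, as did 325 genes (2.32%), and no ligand gene passed it in DDX24-sh2, against 404 genes (2.89%), or in both libraries, against 167 genes (1.19%). Intervals lay above 0 for 5 ligand genes in DDX24-sh1 and for 2 in DDX24-sh2, RAET1E and MICB, beside 23.6% of all genes in each library. An interval below 0 in both libraries was found for ULBP1 and for 20.6% of all genes, and one above 0 in both for MICB and for 14.0% of all genes. The median log2 ratio of the 7 genes was 0.72 and 0.34 in the 2 knockdowns, where that of all genes was -0.02 and -0.03. Over the 4 genes averaging 5 CPM or more, which leaves out ULBP2, ULBP3 and RAET1E, it was 0.62 and 0.0850, so that the value for DDX24-sh2 rests on the members with few counts. These shares are printed as a background only, because the same ratios chose the set.

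**Figure D3:**
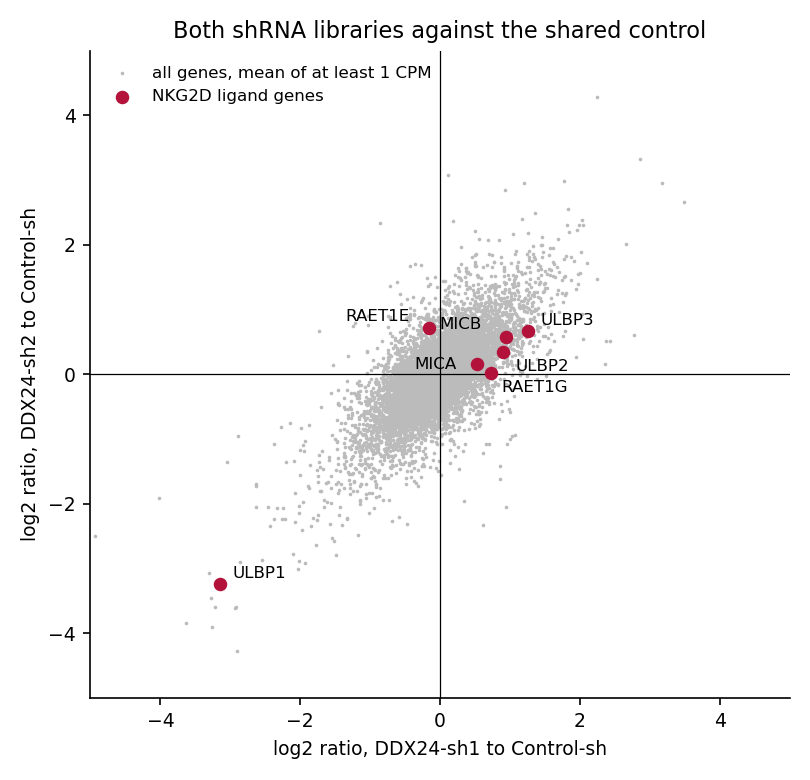
Log2 ratio to Control-sh in DDX24-sh1 (horizontal) and DDX24-sh2 (vertical) for all genes averaging 1 CPM or more, with the NKG2D ligand genes in red; 1 gene lies outside the axes. Both axes share the control library, and ULBP1 sits near the lower left end of the points.

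The order of the ligand genes by level, compared per kilobase of gene length, differed between the control and the knockdowns. In Control-sh the sum over the 8 genes was 31.1 RPKM, of which MICA at 11.8 RPKM gave 38.0% and ULBP1 at 5.99 RPKM gave 19.2%, the second largest share. MICB followed at 5.30 RPKM, and the 2 could not be told apart (interval of the log2 ratio -0.07 to 0.42). RAET1G at 3.94, ULBP2 at 2.35, ULBP3 at 0.949 and RAET1E at 0.780 RPKM came next, the last pair being within counting error of each other. RAET1E was scaled by a deposited length of 3004 bases, while its transcript with the longest coding sequence has 958. For ULBP1 both lengths are 3142. For MICA the lengths are 2386 and 1386 bases, and for MICB 2798 and 2446, and those of RAET1G and ULBP3 differ as well. The place of RAET1E, here and in the knockdown libraries, thus depends on the length used. So do the shares of all genes and the second place of ULBP1 in the control, which was close to MICB.

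In the knockdown libraries ULBP1 gave 1.53% of the summed level of 42.0 RPKM in DDX24-sh1 and 1.90% of 31.5 RPKM in DDX24-sh2, the seventh share in each. It was then next to RAET1E in DDX24-sh1, which stood at 0.692 RPKM against 0.644 RPKM for ULBP1, a difference within counting error. MICA remained first with 40.5% and 41.7%, at 17.0 and 13.1 RPKM. MICB was second at 10.2 and 7.92 RPKM, followed by RAET1G at 6.55 and 3.99 RPKM, then ULBP2, at 4.46 RPKM in DDX24-sh1, and ULBP3 at 2.43 and 1.57. RAET1E stood at 1.31 RPKM in DDX24-sh2. In that library RAET1G could not be told from ULBP2, nor ULBP3 from RAET1E.

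The genes differed in direction, and the sum of their counts lay closer to the control than most of its parts. Summed counts of all 8 genes were 1265, 1671 and 1279, or log2 ratios of 0.30 (0.20 to 0.41) and -0.06 (-0.18 to 0.05), with no scaling by gene length. Without ULBP1 the sums were 944, 1634 and 1245, which lay above the control in both libraries at 0.69 (0.58 to 0.81) and 0.32 (0.20 to 0.44). The 6 genes of the ULBP and RAET1 cluster together had 531, 407 and 313 counts, at -0.48 (-0.67 to -0.29) and -0.84 (-1.05 to -0.64). Without ULBP1, the gene the set was chosen for, the cluster had 210, 370 and 279 counts, at 0.72 (0.47 to 0.97) and 0.33 (0.0656 to 0.59), above the control in both libraries. In DDX24-sh2 RAET1E was the only gene of this sum with an interval above 0 (0.17 to 1.34). The counts of RAET1E are limited by overlapping genes, as given below. MICA and MICB together gave 0.68 (0.55 to 0.82) and 0.32 (0.18 to 0.46).

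Similar genes can exchange reads in such a family, and whether reads matching several genes were counted is not given in the sources used here. ULBP2 and RAET1L were identical at 96.7% of their coding bases, and 32.2% of the 50-base stretches of ULBP2 also occur in another gene, mostly RAET1L or RAET1G. The counts of ULBP2 and the absence of counts from RAET1L are uncertain to that extent. Summed over ULBP2, RAET1L and RAET1G, the counts were 154, 288 and 180, with log2 ratios of 0.80 (0.52 to 1.10) and 0.14 (-0.17 to 0.46). ULBP1 shared only 6.85% of its 50-base stretches, with ULBP3 and RAET1K, and its coding sequence was identical to that of ULBP2 at 77.1% and of ULBP3 at 74.6%. Most of the ULBP1 transcript, 2364 of 3142 bases, lies in the 3′ UTR. MICA and MICB were identical at 78.8% of coding bases but shared under 3% of such stretches with any gene, 2.64% and 2.94%.

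Overlapping genes also limit the values of RAET1E, RAET1G and MICA, since the sources used here do not say whether counting used the strand. RAET1E and RAET1G both overlap the antisense gene RAET1E-AS1 (ENSG00000268592), which had 129, 178 and 117 counts and log2 ratios of 0.36 (0.03 to 0.70) and -0.22 (-0.60 to 0.15). The reads of RAET1G and of this antisense gene were both highest in DDX24-sh1. RAET1E in addition shares 33.7% of its 50-base stretches with other genes, mostly AL355312.5 on the same strand, which had 2, 3 and 1 counts. MICA overlaps HCP5 on its own strand, and HCP5 had 3, 13 and 19 counts, at 1.51 (0.15 to 4.47) and 2.02 (0.82 to 4.98). HCP5 was past 2-fold higher in both libraries, but it averaged 0.646 CPM and is left out of the neighboring genes below. ULBP1, ULBP2 and ULBP3 overlap no other annotated gene.

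Position in the genome was not used to choose the set, and the genes around ULBP1 were examined for the same difference. The cluster spans 186 kb, and within 250 kb of its ends 6 other genes averaged 1 CPM or more. None of the 6 was 2-fold different in both libraries, where 1.38% of all genes were lower and 1.19% higher. Their median log2 ratios were -0.15 and -0.21, and all 6 lie before ULBP1 on the chromosome. LATS1, a kinase of the Hippo pathway, was the 1 gene of the 6 past 2-fold in either library, with 668, 315 and 391 counts, at -1.18 and -0.85. PPP1R14C, on the other side of the cluster, averaged 0.61 CPM and was left out. It had 20, 7 and 5 counts, at -1.38 (-3.10 to -0.31) and -1.72 (-3.85 to -0.62), past 2-fold lower in both libraries. Of the ligand genes nearest to ULBP1 on either side, ULBP2 lay above the control and RAET1L had no counts. Around MICA and MICB, 18 other genes averaged 1 CPM or more, with medians of -0.01 and -0.25. LTB, which encodes lymphotoxin beta, was the 1 gene of these past 2-fold in either library, with 64, 49 and 12 counts, at -0.47 and -2.31.

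**Figure D4:**
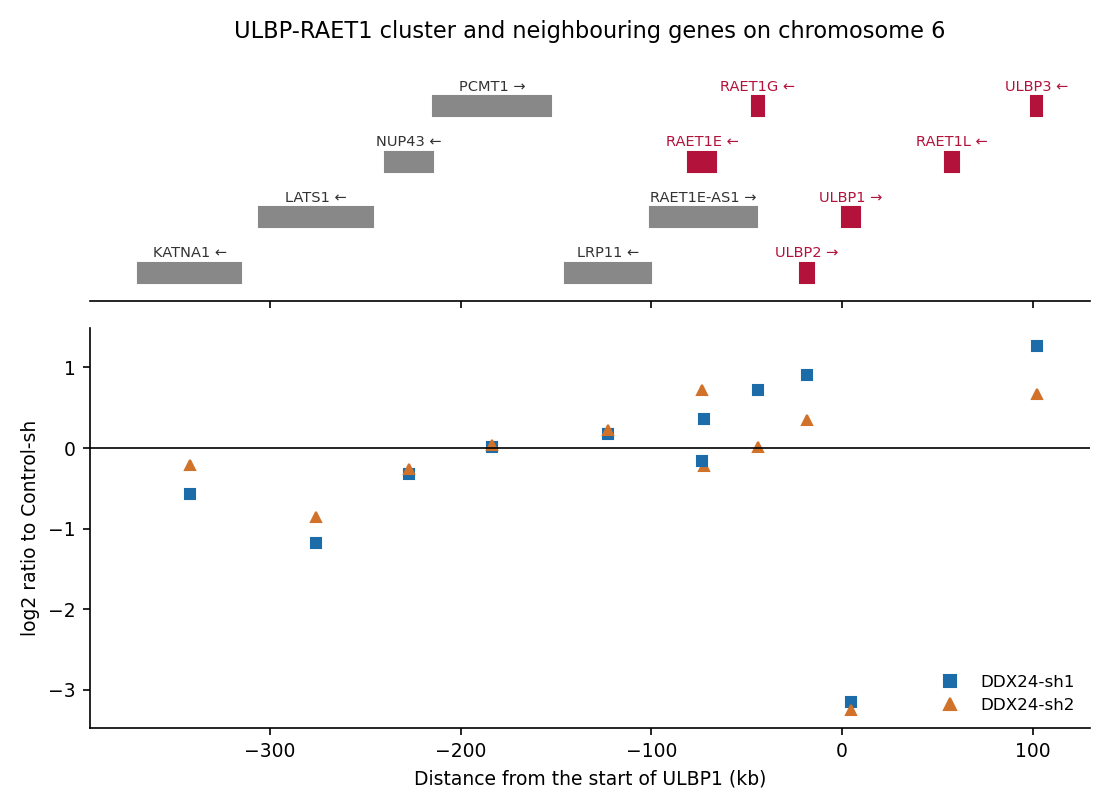
Map of the ULBP-RAET1 genes (red) and the 6 neighboring genes averaging 1 CPM or more (grey) by distance from the start of ULBP1 in kb, with arrows for the strand, above the log2 ratio of each gene in DDX24-sh1 (squares) and DDX24-sh2 (triangles). ULBP1 is the only gene of the window below -2, and RAET1L has no point because it had no counts.

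Genes that regulate NKG2D ligands included several that were lower in both libraries. Of 28 such genes, all averaging 1 CPM or more, 2 were lower by 2-fold in both, beside 1.38% of all genes, and none was higher by as much, beside 1.19%. DDIT3, the transcription factor CHOP of the integrated stress response, had 898, 76 and 64 counts, at log2 ratios of -3.63 (-4.02 to -3.32) and -3.85 (-4.28 to -3.52). XBP1, a transcription factor of the unfolded protein response, had 2702, 711 and 648 counts, at -2.02 (-2.15 to -1.91) and -2.14 (-2.27 to -2.02). ATF4, the stress-induced factor known to activate ULBP1, had 7178, 4137 and 3818 counts, at -0.89 (-0.95 to -0.84) and -0.99 (-1.05 to -0.93). In all 3 genes, as in ULBP1, the control library was high and the knockdown libraries were low.

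RBM4, TFAP2A and HSF1 lay closer to the control. RBM4, a splicing factor needed for ULBP1 messenger RNA, had 81, 64 and 100 counts, and both intervals held 0 (-0.94 to 0.05 and -0.21 to 0.66). TFAP2A, a repressor of ULBP1, had 625, 569 and 631 counts, at -0.23 and -0.07. HSF1, the heat shock factor that acts on MICA and MICB, had 2355, 2258 and 2126 counts, at -0.16 and -0.23. Over the 28 regulators 13 had intervals below 0 in both libraries and 3 above, beside 20.6% and 14.0% of all genes, and the median log2 ratios were -0.25 and -0.13, beside -0.02 and -0.03. EIF2AK3 and ERN1, the sensor kinases PERK and IRE1 of the endoplasmic reticulum, are named after their values were seen: EIF2AK3 stood at -0.81 and -0.90 and ERN1 at -0.93 and -1.48.

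Shedding by metalloproteases removes MICA and MICB from the surface, and 11 genes of this process averaged 1 CPM or more. None was 2-fold different in both libraries, beside 1.38% of all genes lower and 1.19% higher, so that a count of 0 among so few genes says little. ADAM10 had 5713, 5841 and 5156 counts, at log2 ratios of -0.07 and -0.23, and ADAM17, the other main sheddase, had 1908, 1835 and 1653, at -0.16 and -0.29. PDIA6, the disulfide isomerase that prepares MICA for cleavage, had 6682, 5856 and 5380 counts, at -0.29 and -0.39. Of the list 3 genes had intervals below 0 in both libraries and 5 above, beside 20.6% and 14.0% of all genes. The medians were 0.09 and 0.01. The 5 above include TIMP1 and TIMP2, which encode inhibitors of metalloproteases, so the count does not describe proteases alone. MMP2, a matrix metalloprotease on the higher side that was picked with its values in view, had 291, 624 and 479 counts, at 0.996 (0.80 to 1.21) and 0.63 (0.43 to 0.85). Among 9 genes that make, attach or remodel the GPI anchor none passed 2-fold in both libraries, against the same shares of all genes, and the medians were -0.01 and 0.02. PIGA, which acts in the first step of anchor synthesis and was picked in the same way, had 370, 191 and 283 counts, at -1.05 (-1.31 to -0.80) and -0.46 (-0.70 to -0.24).

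Other ligands of natural killer cells showed values on both sides of the control. Of 11 further activating ligands averaging 1 CPM or more, ICAM1 was 2-fold lower in both libraries, beside 1.38% of all genes, and CLEC2B 2-fold higher, beside 1.19%, and the medians were 0.10 and -0.02. ICAM1, which binds the integrin LFA-1, had 663, 251 and 99 counts, at -1.49 (-1.72 to -1.29) and -2.80 (-3.14 to -2.52). CLEC2B, the ligand AICL of the receptor NKp80, had 14, 39 and 32 counts, at 1.27 (0.47 to 2.37) and 1.02 (0.16 to 2.13). Like ULBP3, CLEC2B reached the average of 1 CPM through the knockdown libraries, since the control lay at 0.820 CPM. ICAM1 was lowest in DDX24-sh2, whereas for ULBP1 the knockdown libraries were within counting error of each other. No inhibitory ligand of the 11 averaging 1 CPM or more passed 2-fold in both libraries, where 1.38% of all genes were lower and 1.19% higher, and the medians were 0.09 and 0.04. CEACAM1 of the same list averaged 0.949 CPM and was left out, although its control lay at 1.58 CPM. It had 27, 12 and 11 counts, at -1.14 (-2.39 to -0.24) and -1.23 (-2.54 to -0.32), past 2-fold lower in both libraries. CDH1 and CLEC2D were picked with their values in view. In DDX24-sh2 alone CDH1, also a ligand of the inhibitory receptor KLRG1, was past 2-fold on the lower side. CLEC2D, the ligand of the inhibitory receptor CD161, was past it on the higher side, with 20, 23 and 52 counts, at 0.09 (-0.83 to 1.04) and 1.22 (0.53 to 2.12). HLA-E, the ligand of the inhibitory receptor NKG2A, had 1744, 2024 and 1855 counts, at 0.11 and 0.01. The receptor gene KLRK1 and the adaptor gene TYROBP had no count, and the adaptor gene HCST had a single count in DDX24-sh2.

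**Figure D5:**
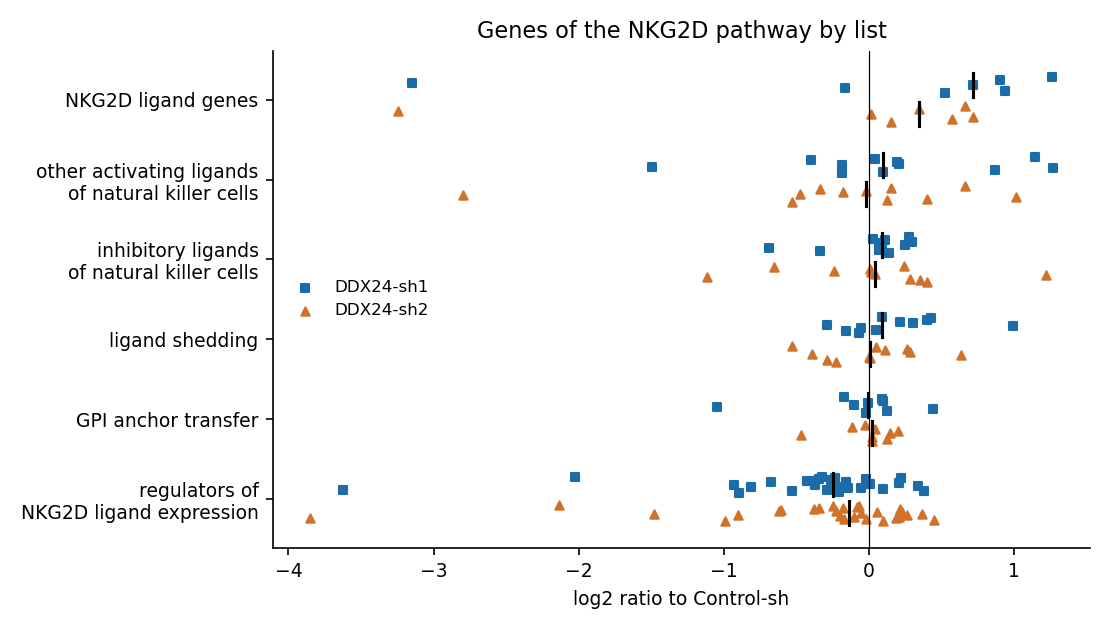
Log2 ratio to Control-sh of each gene averaging 1 CPM or more in 6 lists of the NKG2D pathway, in DDX24-sh1 (squares) and DDX24-sh2 (triangles), with a black bar at each median. The ligand genes have medians of 0.72 and 0.34, and the regulators -0.25 and -0.13.

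The genes with the pattern most like ULBP1 were named by the distance between their pairs of log2 ratios, which rests on 3 libraries that share the control. The 5 nearest of the 13984 genes were FGB, FGG, ADM2, CCL20 and ATF3, at distances of 0.23, 0.25, 0.36, 0.42 and 0.42. FGB and FGG, which encode fibrinogen chains, rest on few counts, 54, 4 and 5 for FGB and 71, 6 and 5 for FGG. Both reached the average of 1 CPM through the control library, at 3.16 and 4.16 CPM. In the knockdowns FGB lay at 0.219 and 0.277 CPM and FGG at 0.328 and 0.277 CPM. The filter thus keeps genes of low level here when the control is high. ADM2, a peptide hormone of the adrenomedullin family, had 181, 19 and 14 counts, at log2 ratios of -3.22 (-4.12 to -2.67) and -3.59 (-4.67 to -2.99). CCL20, a chemokine, had 148, 19 and 11 counts. ATF3, a stress-induced factor of the ATF and CREB family, had 457, 63 and 38 counts, at -2.92 (-3.36 to -2.58) and -3.60 (-4.19 to -3.19).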

How the data were processed

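RNA of A549 cells was sequenced in 3 libraries, 1 per condition, and the labels gave the groups. The authors deposited a count for each gene, not normalized, and also FPKM values. The submitters' processing notes name Bowtie2 2.0.6, TopHat2 2.0.9, Cufflinks 2.1.1 and Cuffdiff 2.1.1, and the strand setting and the program that counted reads are not given in the sources used here. Gene identifiers and positions are those of GENCODE 29 on GRCh38.

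Counts were divided by library totals (17218884 to 18337471) scaled with TMM factors from edgeR 4.0.16 in R 4.3.3, and log2 ratios of CPM used a prior count of 2, so that ratios of low genes are understated. Intervals at 95% are 2-sided, whereas the limit of 3 counts for a gene at 0 is a fixed 1-sided one, which is lower. Both cover counting error only, since each condition has 1 library. The reads carry no molecular identifiers and may repeat a molecule, in which case both are too narrow even for counting error. Genes averaging 1 CPM or more over the libraries were kept. RPKM was computed from the scaled counts and the deposited gene lengths. Ratios and intervals were run on simulated counts that held counting error alone and were scaled by plain totals. Such counts hold no variation between cultures, so the run checks the calculation only and not how the intervals cover real differences. The FPKM values were used only as an alternative, since their shRNA labels are exchanged relative to the counts. Other alternatives were DESeq2 1.42.0 size factors, plain totals, a prior count of 0.5, other filters and other folds.

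The members and lists were chosen with earlier results of these data known. Named genes were the 8 ligand genes, list genes at least 2-fold different with the same sign in both knockdowns (up to 5 per list), 10 named regulators, sheddases and HLA-E with any value, neighbours 2-fold different in either library and the 5 genes nearest to ULBP1. Genes overlapping a ligand gene were added, and TIMP1, TIMP2, CEACAM1 and PPP1R14C were added with their values in view. A gene that the rule names is not reported here. Promoters came from RefSeq and shared 50-base stretches from the GENCODE 29 transcripts.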

Additional observations from a re-analysis of the deposited data

Results flagged for a closer look

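RAET1E stood apart because the knockdown libraries lay on opposite sides of the control, at 38 counts with DDX24-sh1 and 71 with DDX24-sh2 against 40. DDX24-sh2 exceeded DDX24-sh1 by a log2 ratio of 0.89, with an interval of 0.33 to 1.53 that covers counting error only. The difference was not tested, as each condition has 1 library. RAET1E overlaps RAET1E-AS1, and the library that is high for RAET1E depends on whether the names of the counts or those of the FPKM values are right.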

How the results depend on the processing

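No paired analysis was possible because each condition has 1 library, and no replicate could be left out. With DESeq2 size factors, library totals, a prior count of 0.5 or FPKM + 0.1 with the shRNA labels exchanged, each ligand gene with counts kept its direction and stayed within its counting interval. Taking the FPKM labels as given, with + 0.1, swapped the shRNA libraries: DDX24-sh1 and DDX24-sh2 then stood at log2 ratios of 0.35 and 0.91 for ULBP2, 0.69 and -0.14 for RAET1E, which reversed in DDX24-sh2, 0.0254 and 0.73 for RAET1G, 0.16 and 0.53 for MICA, and 0.58 and 0.95 for MICB, and the median in DDX24-sh1 was 0.35. The median in DDX24-sh2, 0.34, was 0.0850 at a mean of at least 5 CPM and 0.25 with no filter, where RAET1L counts as 0. Adding 1 to the exchanged FPKM shrank ULBP1 to -2.08 and -2.12, since its FPKM in the knockdowns lies below 1. At 1.5-fold, 1 ligand gene, ULBP3, was higher in both libraries, against 0 at 2-fold. The share of all genes past 1.5-fold was not computed, and the ULBP3 interval in DDX24-sh2 held 0, so nothing is read from that count. In DDX24-sh1 alone 1 ligand gene passed 2-fold, beside 2.32% of all genes. Of all genes, 193 were 2-fold lower in both libraries, against 87 with FPKM + 1, 912 with no filter and 445 at a mean of at least 0.1 CPM, and 167 were higher, against 30, 719 and 719, and 62 at a mean of at least 5 CPM. The scalings put the median of all genes between -0.03 and 0.0029. Depth limits RAET1L, without counts, and ULBP3 and RAET1E, whose control counts were 16 and 40.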
